A study of Mus musculus with 8 samples.

Results

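The genes described here are 36 listed genes of the interferon response and of antigen presentation, followed through embryonic mouse hearts that carry a weakened *Kdm1a*. *Kdm1a* (older symbol *Aof2*) encodes Lsd1, an enzyme that removes methyl groups from histone H3 and works in repressor complexes with CoREST. The 36 genes were listed by name as genes of these pathways, by no measured value, although earlier results of these hearts were known when the list was made. Of these, 34 had a probe set annotated to them alone, among 18194 such genes on the Affymetrix Mouse430 array. *Isg15* was read only by a probe set shared with *Gm9706*, and *Ifi44* by none. Where a gene had several probe sets, the one with the highest mean stood for it.

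At E18.5, whole hearts were dissected from timed matings, 5 from wild-type embryos and 3 from 2lox/2lox embryos, and each went on an array of its own. The 2lox allele is the floxed *Kdm1a* allele with no Cre applied, which also carries 2 accidental point mutations in the tower domain of Lsd1, and both copies of it are present in every cell of the animal. The genotype label adds the words Lsd1 knock-out, but the study describes the allele as a hypomorph that still makes protein, and the brighter *Kdm1a* probe set read 9.44, 9.53 and 9.55 in 2lox/2lox hearts 1, 2 and 3, below the wild-type span of 10.26 to 10.36 (log2 fold change -0.81, limma adjusted p = 5.15e-04). The hearts came from separate embryos, described in the study as littermates, but the litter of each heart was not known here.

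All values are log2 expression levels. Array medians lay between 5.03 and 5.10, and any pair of arrays correlated at 0.992 or more over all probe sets. Cardiomyocyte genes were among the brightest, with *Myh7*, the slow myosin heavy chain, at 14.12 to 14.41 in the 8 hearts. No detection calls were used, and a probe set close to 4.21, the lower quartile of the table, may read background alone; 5 of the 34 genes had a wild-type mean below that point (*Oasl2*, *Gbp3*, *Ifit1*, *Gbp2* and *Mx1*). *Xist*, the RNA of the inactive X chromosome, was high in 2lox/2lox heart 3 (10.88) and wild-type heart 2 (10.59), and low in the others.

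Interferons are secreted proteins that cells release on sensing viral or misplaced nucleic acid. Type I interferons bind the receptor made of *Ifnar1* and *Ifnar2*, and signalling through the kinases Jak1 and Tyk2 leads the complex ISGF3, which holds Stat2 and Irf9, to bind an interferon-stimulated response element (ISRE) in front of its target genes. Genes that answer interferon gamma often carry a shorter palindrome, the gamma-activated site (GAS). The targets include sensors of viral RNA, enzymes and binding proteins that block viral growth, and the proteasome subunits and peptide transporter that load class I MHC molecules. Lsd1 is known from other cell types to keep this response down, in part by limiting transcripts of endogenous retroviruses, which is the reason the genes were examined here.

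The promoters show how far the list shares these elements. RefSeq promoter windows of GRCm38.p6, from 250 bases before to 50 after the start site, were at hand for 28 of the 36 genes. The ISRE core, GAAA followed after any 2 bases by GAAA again and searched on both strands, lay in 15 of the 28 (53.6%), against 3.99% of the 27025 genes in the promoter table. The GAS core TTCNNNGAA, which reads the same on both strands, lay in 7 of the 28 (25%), against 9.55%. The 2 cores can overlap. Of the 8 genes that stood out in 2lox/2lox heart 1, 6 had a window and 4 of those held an ISRE core (*Gbp3*, *Bst2*, *Rsad2* and *Ifih1*), while *Irf9* and *Oasl2* did not; of the other measured genes 10 of 20 held one. A match is a run of letters and not a shown binding site. The windows below are those of *Isg15*, the textbook target, of the 4 genes just named, of *Oasl2* as one without the core, and of *B2m*, which holds the core but did not follow the others in these hearts. Each is written 5′ to 3′ along its gene, with every ISRE core in capitals and overlapping cores run together.
*Isg15* (chr4:156200769-156201068, minus strand): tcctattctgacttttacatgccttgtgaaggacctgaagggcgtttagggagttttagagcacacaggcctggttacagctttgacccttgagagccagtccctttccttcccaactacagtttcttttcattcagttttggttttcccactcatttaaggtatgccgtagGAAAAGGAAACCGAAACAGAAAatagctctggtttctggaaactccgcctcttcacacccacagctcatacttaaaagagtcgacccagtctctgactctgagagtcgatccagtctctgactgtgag
*Gbp3* (chr3:142559794-142560093, plus strand): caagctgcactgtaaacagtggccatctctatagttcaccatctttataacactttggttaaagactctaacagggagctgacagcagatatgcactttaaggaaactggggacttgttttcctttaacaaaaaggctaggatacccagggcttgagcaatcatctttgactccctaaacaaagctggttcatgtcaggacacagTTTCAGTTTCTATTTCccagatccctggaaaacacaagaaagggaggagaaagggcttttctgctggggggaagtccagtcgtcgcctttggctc
*Bst2* (chr8:71537423-71537722, minus strand): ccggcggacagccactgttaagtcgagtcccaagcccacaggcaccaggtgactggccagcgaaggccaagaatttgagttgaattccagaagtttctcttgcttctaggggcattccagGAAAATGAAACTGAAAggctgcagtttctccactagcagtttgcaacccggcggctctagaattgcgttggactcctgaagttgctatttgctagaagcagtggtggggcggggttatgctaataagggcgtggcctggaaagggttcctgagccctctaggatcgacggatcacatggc
*Rsad2* (chr12:26456403-26456702, minus strand): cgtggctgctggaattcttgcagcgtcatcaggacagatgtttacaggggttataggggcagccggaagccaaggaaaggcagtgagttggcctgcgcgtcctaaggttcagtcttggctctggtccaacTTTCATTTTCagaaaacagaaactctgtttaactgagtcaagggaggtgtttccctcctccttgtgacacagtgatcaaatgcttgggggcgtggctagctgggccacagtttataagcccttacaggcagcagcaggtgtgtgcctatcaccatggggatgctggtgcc
*Ifih1* (chr2:62646206-62646505, minus strand): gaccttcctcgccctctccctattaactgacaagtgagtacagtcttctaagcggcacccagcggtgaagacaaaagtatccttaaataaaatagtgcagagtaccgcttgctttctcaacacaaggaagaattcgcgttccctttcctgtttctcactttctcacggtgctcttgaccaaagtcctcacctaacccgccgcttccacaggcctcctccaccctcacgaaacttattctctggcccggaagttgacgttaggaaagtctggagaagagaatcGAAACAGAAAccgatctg
*Oasl2* (chr5:114896684-114896983, plus strand): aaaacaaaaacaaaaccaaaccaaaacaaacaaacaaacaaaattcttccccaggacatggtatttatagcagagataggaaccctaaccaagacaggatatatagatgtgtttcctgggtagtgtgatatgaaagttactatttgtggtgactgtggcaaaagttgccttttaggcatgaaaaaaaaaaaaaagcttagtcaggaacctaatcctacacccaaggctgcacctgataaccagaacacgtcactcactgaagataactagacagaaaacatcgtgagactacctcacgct
*B2m* (chr2:122147437-122147736, plus strand): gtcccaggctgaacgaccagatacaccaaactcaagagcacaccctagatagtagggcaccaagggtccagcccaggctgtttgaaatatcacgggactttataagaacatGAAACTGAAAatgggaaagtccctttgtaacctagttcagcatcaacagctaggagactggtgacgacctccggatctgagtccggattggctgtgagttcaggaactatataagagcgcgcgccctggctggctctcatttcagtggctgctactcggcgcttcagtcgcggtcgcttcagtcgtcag

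No single gene of the list passed the adjusted threshold of 0.05 in the comparison of 3 2lox/2lox with 5 wild-type hearts, where 0.0798% of all 45101 probe sets were called, 0.0621% higher and 0.0177% lower. The smallest adjusted p was 0.196, for *Trim25* (limma). The list leaned upward nonetheless. The log2 fold change was above 0 for 29 of 34 genes (48.0% of all genes), with a median of 0.15 against -0.0046 over all genes. At an unadjusted threshold of 0.05, 8 of 34 genes (23.5%) were higher, where 5.82% of all genes were, and 0 were lower, where 4.41% were. In 5 of 34 genes (14.7%; 3.16% of all genes) every 2lox/2lox heart lay above every wild-type heart (*Trim25*, *Irf1*, *Oasl2*, *Gbp3* and *Mx1*), and in 0 genes did all 3 lie below (2.81% of all genes). In whole hearts, more cells of a type and more RNA per cell cannot be told apart.

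This lean was mostly that of a single embryo. 2lox/2lox heart 1 was the highest of the 8 hearts for 25 of 34 genes (73.5%), against 18.3% of all genes, whereas 2lox/2lox heart 2 was highest for 1 and 2lox/2lox heart 3 for 0. Averaged over the 34 genes, the log2 difference from the wild-type mean was 0.54 in 2lox/2lox heart 1, 0.05 in heart 2 and 0.08 in heart 3, and it ran from -0.11 to 0.12 among the wild-type hearts. Hearts 2 and 3 therefore lay inside the wild-type spread by this average and heart 1 outside it. A single heart has no replicate, so the values of heart 1 are given as a description without a test.

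**Figure D1:**
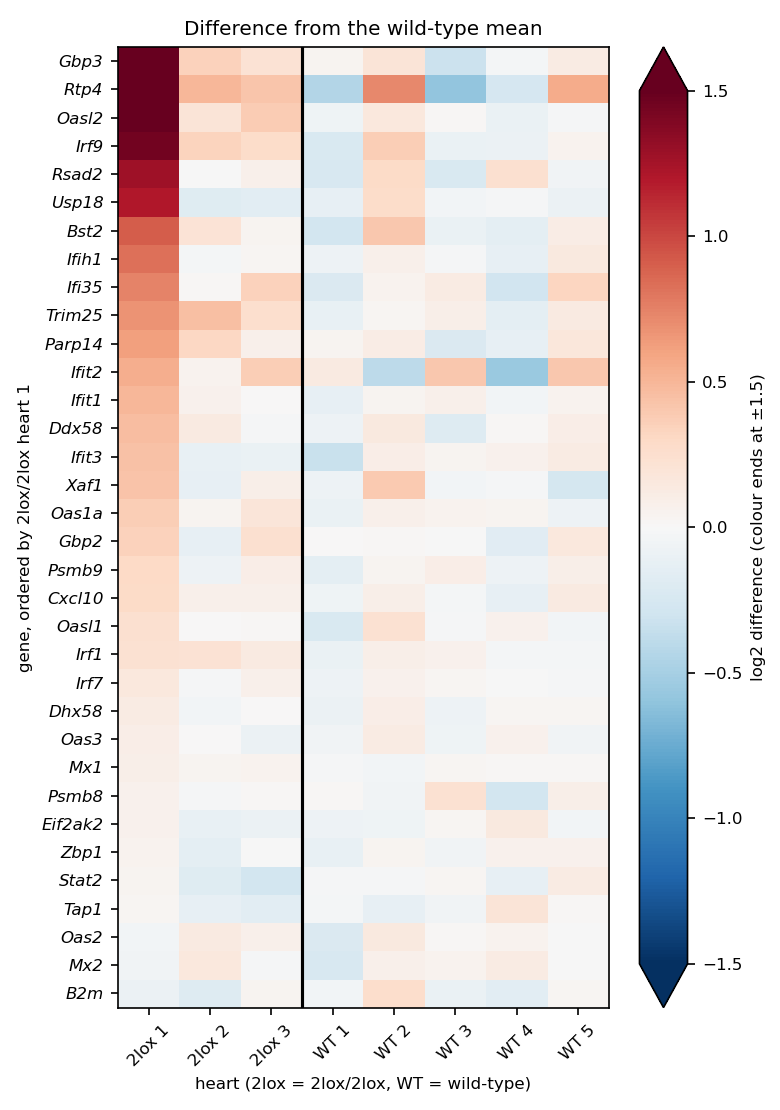
Log2 difference of each measured gene (rows) from its wild-type mean in each of the 8 hearts (columns; 2lox, 2lox/2lox; WT, wild-type), with red for higher and blue for lower and colours ending at ±1.5. The first column is red through most of its length, with 25 of 34 genes highest there, and the other columns of both genotypes are paler, with *Rtp4* and *Ifit2* the most uneven among the wild-type hearts.

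For 8 of the 34 genes, heart 1 exceeded the next highest heart of either genotype by more than 0.5, a lead chosen after the values were seen. Over all 18194 genes only 16 had such a lead (0.0879%). A lead of more than 1 was found for *Gbp3*, *Oasl2*, *Rtp4* and *Irf9*, which were the only 4 such genes of the 18194 (0.0220%). *Rsad2* and *Usp18* came next, so that the 6 genes with the largest lead in heart 1 were all on the list. *Bst2*, with a lead of 0.50, was the last inside the limit and *Ifit1*, with 0.42, the first gene of the list outside it. In none of the other 7 hearts did the 20 genes with the largest lead include any of the list. Other hearts also had leads of more than 0.5, in 26 genes for 2lox/2lox heart 2 and 27 for wild-type heart 4.

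**Figure D2:**
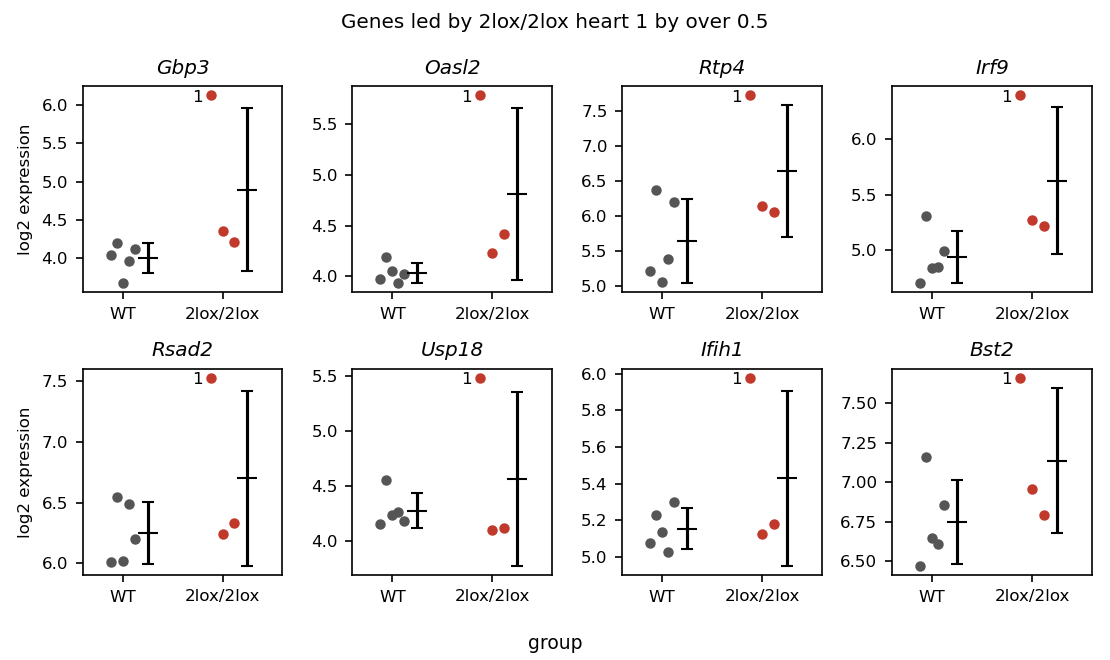
Log2 expression (vertical axes, each with its own range) of the 8 genes led by 2lox/2lox heart 1 by more than 0.5, with 1 point per heart (WT, wild-type, n = 5; 2lox/2lox, n = 3), heart 1 marked 1, and mean ± SD beside the points. Heart 1 stands alone in every panel, while the other 2lox/2lox hearts lie within or close to the wild-type points, as for *Usp18* at 4.10 and 4.12 against 4.15 to 4.55.

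Among the transcription factors, *Irf9*, the DNA-binding subunit of ISGF3, carried most of the difference. *Irf9* read 6.39, 5.27 and 5.22 in 2lox/2lox hearts 1, 2 and 3 and 4.71, 5.31, 4.84, 4.85 and 4.99 in wild-type hearts 1 to 5. Heart 1 was 2.74-fold above the wild-type mean, and hearts 2 and 3 fell below the highest wild-type heart. The log2 fold change was 0.69 (95% interval 0.14 to 1.23, adjusted p = 0.353). *Irf1*, a factor induced most strongly by interferon gamma, behaved differently, with 8.08, 8.08 and 7.997 in the 2lox/2lox hearts and 7.75, 7.95, 7.93, 7.83 and 7.83 in the wild-type hearts. The groups did not overlap and the 3 mutant hearts were alike, but the difference was small (0.19, 95% interval 0.06 to 0.33, adjusted p = 0.312). *Irf7*, which switches on the type I interferon genes, read 5.35, 5.18 and 5.28 against 5.12, 5.26, 5.23, 5.198 and 5.18, overlapping groups with a log2 fold change of 0.07. *Stat2*, the partner of Irf9, had a log2 fold change of -0.14. A dimmer second *Stat2* probe set gave 0.11, with heart 1 the highest heart.

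The effector genes all had a positive log2 fold change (10 of 10, median 0.33), and heart 1 was highest in all 10. *Rtp4*, an interferon-induced chaperone of cell-surface receptors, read 7.73, 6.15 and 6.06 in the 2lox/2lox hearts and 5.21, 6.37, 5.06, 5.39 and 6.20 in the wild-type hearts. Its log2 fold change of 0.998 was the highest of the list (95% interval 0.08 to 1.92, adjusted p = 0.419), yet hearts 2 and 3 lay inside a wide wild-type range. A dimmer second *Rtp4* probe set, at 4.31 to 4.55 in all hearts, showed none of this, with 4.44 in heart 1. *Bst2* (tetherin), which holds budding virus at the cell surface, read 7.66, 6.96 and 6.79 against 6.47, 7.16, 6.65, 6.61 and 6.86 (0.39, adjusted p = 0.525). *Rsad2* (viperin), an enzyme that makes a chain-terminating nucleotide, was given in full after its values were seen, at 7.53, 6.24 and 6.33 against 6.01, 6.54, 6.02, 6.49 and 6.20 (0.45, 95% interval -0.14 to 1.04, adjusted p = 0.599). Heart 1 was also the highest heart on both other *Rsad2* probe sets, by 0.28 and 0.91.

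Smaller leads of heart 1 were found in the remaining effectors. *Ifi35*, which pairs with the Nmi protein, read 8.12, 7.39 and 7.72 against 7.17, 7.44, 7.50, 7.10 and 7.70 (0.37, adjusted p = 0.478), and heart 1 was highest on all 3 of its probe sets. *Parp14*, a mono-ADP-ribosyltransferase, read 5.24, 4.93 and 4.70 against 4.67, 4.74, 4.41, 4.51 and 4.80 (0.33, 95% interval 0.06 to 0.61, adjusted p = 0.368). Its second probe set gave -0.07. *Cxcl10*, a chemokine that draws T cells, read 4.81, 4.59 and 4.59 against 4.45, 4.60, 4.48, 4.39 and 4.65 (0.15, adjusted p = 0.554). *Ifit1*, which binds viral RNA by its 5′ end, was dim throughout, with 4.44, 4.02 and 3.96 against 3.82, 3.99, 4.03, 3.91 and 3.996 (0.19, adjusted p = 0.563). In each of these 4 genes hearts 2 and 3 lay nearer to the wild-type range than heart 1 did, or inside it. The related *Ifit2* and *Ifit3* had log2 fold changes of 0.32 and 0.07. *Xaf1*, which binds the apoptosis inhibitor Xiap, had 0.13 on its brighter probe set and 0.87 on a dimmer one.

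The ISG15 system, in which a ubiquitin-like protein is joined to other proteins and taken off again, followed heart 1 as well. The probe set shared by *Isg15* and *Gm9706* read 6.48, 5.44 and 5.38 in the 2lox/2lox hearts and 4.72, 5.56, 5.33, 5.17 and 5.03 in the wild-type hearts, 2.49-fold above the wild-type mean in heart 1 and within the wild-type range in hearts 2 and 3 (log2 fold change 0.60, adjusted p = 0.422). Which of the 2 genes gave the signal cannot be told. *Usp18*, which removes Isg15 from proteins and damps the type I receptor, read 5.48, 4.10 and 4.12 against 4.15, 4.55, 4.24, 4.26 and 4.19, values given in full after they were seen. Hearts 2 and 3 were below every wild-type heart, so the log2 fold change of 0.29 (95% interval -0.31 to 0.89) became -0.17 without heart 1.

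The OAS family makes or resembles the enzymes that make the 2′-5′ oligoadenylates which activate RNase L. *Oasl2* read 5.78, 4.23 and 4.41 in the 2lox/2lox hearts and 3.97, 4.19, 4.05, 3.94 and 4.02 in the wild-type hearts. The groups did not overlap, although hearts 2 and 3 were close to the wild-type hearts and heart 1 was 1.74 above their mean on the log2 scale, a mean that may also be background (0.77, 95% interval 0.14 to 1.40, adjusted p = 0.359). *Oas1a* read 6.64, 6.31 and 6.45 against 6.17, 6.35, 6.32, 6.31 and 6.20, with a smaller difference of 0.20 (95% interval 0.02 to 0.38, adjusted p = 0.401). The other members stayed near 0, with log2 fold changes of 0.09 for *Oasl1*, 0.05 for *Oas2* and 0.0050 for *Oas3*, and heart 1 was not the highest heart for the last pair.

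The nucleic acid sensors split. *Trim25*, the ubiquitin ligase that acts on RIG-I, read 9.12, 8.89 and 8.70 in the 2lox/2lox hearts and 8.33, 8.47, 8.53, 8.30 and 8.58 in the wild-type hearts. All 3 mutant hearts were above every wild-type heart, and heart 1 led heart 2 by no more than 0.23 (log2 fold change 0.46, 95% interval 0.24 to 0.68). A second bright probe set gave 0.44, but there heart 3, at 8.268, lay just below the highest wild-type heart, at 8.271. A dim further one gave -0.05, with heart 1 the lowest of the 8 hearts at 4.58. *Ifih1* (MDA5), which senses long double-stranded RNA, showed the opposite layout, at 5.98, 5.13 and 5.18 against 5.07, 5.23, 5.14, 5.02 and 5.30, values given in full after they were seen. Its log2 fold change of 0.28 was 0.00045 without heart 1. *Ddx58* (RIG-I) had a log2 fold change of 0.19, *Dhx58* (LGP2) 0.03, *Eif2ak2* (PKR), the kinase that halts translation on binding double-stranded RNA, -0.04, and *Zbp1*, a sensor of Z-form nucleic acid, -0.03.

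Of the large GTPases, *Gbp3* alone stood out in heart 1. The guanylate-binding protein gene *Gbp3* read 6.12, 4.35 and 4.22 in the 2lox/2lox hearts and 4.04, 4.20, 3.68, 3.97 and 4.12 in the wild-type hearts. Heart 1 was 2.12 above the wild-type mean on the log2 scale, and since that mean may be background alone, the difference can be too small (log2 fold change 0.89, 95% interval 0.09 to 1.70, adjusted p = 0.405). *Gbp2* had a log2 fold change of 0.15, *Mx1* 0.06 and *Mx2* 0.03, and the wild-type means of *Gbp2* and *Mx1* were also below the lower quartile. For *Mx1* the groups did not overlap, but all 8 values lay between 3.77 and 3.89.

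The 4 antigen presentation genes of the list did not follow heart 1. *B2m*, the light chain of class I MHC, read 10.98, 10.87 and 11.11 in the 2lox/2lox hearts and 11.03, 11.33, 10.96, 10.91 and 11.10 in the wild-type hearts (log2 fold change -0.08, 95% interval -0.30 to 0.14). *Tap1*, the peptide transporter, read 5.24, 5.09 and 5.05 against 5.18, 5.08, 5.16, 5.402 and 5.22 (-0.08, 95% interval -0.26 to 0.10). *Psmb8*, an immunoproteasome subunit, read 5.13, 5.05 and 5.08 against 5.08, 5.01, 5.29, 4.79 and 5.15 (0.02, 95% interval -0.20 to 0.24). In these 3 genes the mutant hearts, heart 1 included, lay among the wild-type hearts or just below them. *Psmb9*, a second immunoproteasome subunit, had a log2 fold change of 0.11. None of the 4 passed the unadjusted threshold, and heart 1 was highest only for *Psmb9*. The intervals leave room for changes of up to about 0.3 in either direction.

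Leaving out 2lox/2lox heart 1 removed most of the difference. The median log2 fold change dropped from 0.15 to 0.04 (-0.01 over all genes) and the range over the list narrowed to -0.23 to 0.46. At the unadjusted threshold 3 of 34 genes (8.82%; 3.20% of all genes) were then higher, namely *Trim25* (0.35, 95% interval 0.13 to 0.57), *Oasl2* (0.29, 95% interval 0.09 to 0.48) and *Irf1* (0.18, 95% interval 0.01 to 0.35). *Stat2* was then lower at the same threshold (-0.23, 95% interval -0.40 to -0.05, where 3% of all genes were lower). Its dimmer second probe set did not share this, at 0.01 without heart 1. No gene of the list passed the adjusted threshold (smallest adjusted p 0.483), which 0.0443% of all probe sets did. A positive log2 fold change was left in 23 of 34 genes (45.1% of all genes). Leaving out heart 3 acted the other way, since 797 probe sets were then called (1.02% higher and 0.749% lower), among them *Trim25* at an adjusted p of 0.0313. Hearts 1 and 2, left in that fit, both differed from every wild-type heart in a measure of RNA quality given below.

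**Figure D3:**
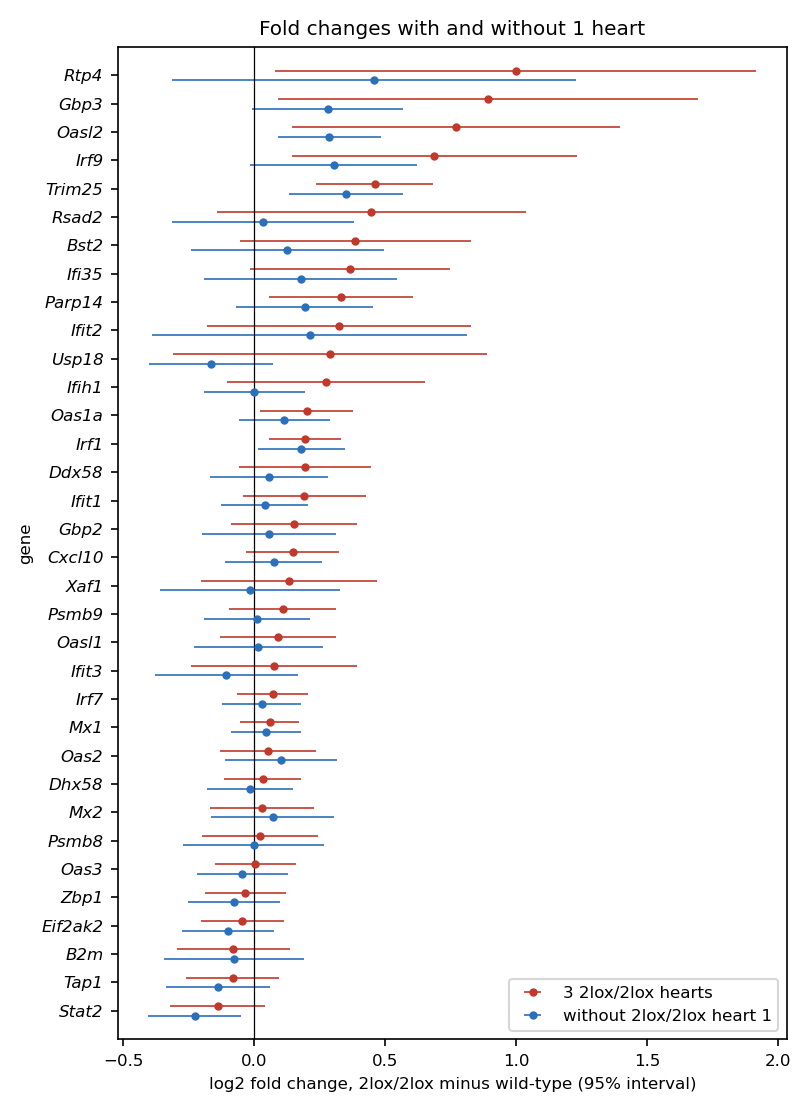
Log2 fold change of each measured gene (horizontal axis, 2lox/2lox minus wild-type; bars, 95% intervals) with all 3 2lox/2lox hearts in red and without 2lox/2lox heart 1 in blue, ordered by the red points. The wide red intervals at the top shrink and move towards 0 in blue, as for *Gbp3* from 0.89 to 0.28, whereas *Trim25*, *Irf1* and the antigen presentation genes shift less.

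Each mutant heart was also set against the wild-type range alone. Heart 1 exceeded the range for 25 of 34 genes (24.0% of all genes), heart 2 for 7 (16.6%) and heart 3 for 10 (14.9%). Hearts 2 and 3 lay under the range for 5 genes each (22.8% and 14.6% of all genes), and heart 1 for 0 (18.7%). In heart 1, 6 genes of the list were more than 1 above the wild-type mean (*Gbp3*, *Rtp4*, *Oasl2*, *Irf9*, *Rsad2* and *Usp18*), out of 27 such genes of the 18194 (0.148%). In hearts 2 and 3, none was.

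The 15 genes with more than 1 probe set allow a look at the same RNA through other probes. Heart 1 was the highest heart on 10 of the 23 further probe sets, and on 7547 of all 45101 probe sets. For 8 of the 15 genes the probe sets gave log2 fold changes of both signs (*Ddx58*, *Dhx58*, *Eif2ak2*, *Parp14*, *Stat2*, *Tap1*, *Trim25* and *Zbp1*), mostly close to 0. *Xaf1* went from 0.13 on the brighter to 0.87 on the dimmer probe set.

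The other interferon-stimulated genes were on average also highest in heart 1, at a smaller size. Of 47 such genes 43 were measured, and 0 passed the adjusted threshold. Unadjusted, 10 were higher (5.82% of all genes) and 1 lower (4.41%), with a median log2 fold change of 0.10, and heart 1 was highest for 25 of the 43 (18.3% of all genes). The mean log2 difference from wild-type was 0.27 in heart 1, 0.06 in heart 2 and 0.09 in heart 3, against -0.06 to 0.09 among the wild-type hearts. *Ifitm3*, a membrane protein that blocks viral entry, read 10.03, 9.14 and 8.98 against 8.25, 9.11, 8.31, 7.97 and 8.83 (0.89, adjusted p = 0.312). *Parp12* differed in kind, being alike in the 3 mutant hearts at 7.86, 7.77 and 7.73 and lower in every wild-type heart at 7.24, 7.10, 7.13, 6.92 and 7.42 (0.62, adjusted p = 0.0827). *Gbp6* had a log2 fold change of 0.33 (adjusted p = 0.234).

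Upstream of these targets, the genes that passed the unadjusted threshold were all higher (5.82% of all genes were higher and 4.41% lower). Of the 9 measured ligand and receptor genes none did, with a median of 0.0046, and the mean difference in heart 1 was 0.0018. *Ifna4* (-0.17), *Il10rb* (0.14) and *Ifng* (0.06) had the smallest p-values there. Among 12 measured signal transducers 2 were higher, *Stat3* (0.37) and *Irf2* (0.27). Among 13 genes of nucleic acid sensing 2 were higher, the adaptors *Ticam1* (0.31) and *Myd88* (0.19), with *Adar*, which edits double-stranded RNA, next at 0.17. For *Stat3* and *Myd88*, and for no other gene of these 3 lists, every 2lox/2lox heart lay above every wild-type heart (3.16% of all genes). No gene of these 3 lists passed the adjusted threshold, and heart 1 led none of them by more than 0.5.

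The wider presentation pathway gave calls in both directions at the unadjusted threshold, where 5.82% of all genes were higher and 4.41% lower. Of 13 measured class I genes 2 were higher, the heavy chains *H2-K1* (0.23) and *H2-D1* (0.27, named after its values were seen). In both, every 2lox/2lox heart lay above every wild-type heart (3.16% of all genes). Another 2 were lower, namely the trimming peptidase *Erap1* (-0.23) and the peptide editor *Tapbpl* (-0.20). For *Tapbpl* every 2lox/2lox heart lay below every wild-type heart (2.81% of all genes). The median of the 13 genes was 0.02, and none passed the adjusted threshold. Heart 1 matched heart 2 for *H2-K1*, at 8.25 and 8.26. Of 7 measured class II genes 1 was higher, the lysosomal protease *Ctss* (0.66), at 8.24, 8.72 and 8.94 against 7.57 to 8.34. *H2-Ab1* and *Cd74* had log2 fold changes of 0.27 and 0.20. None of the 10 constitutive proteasome genes passed.

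**Figure D4:**
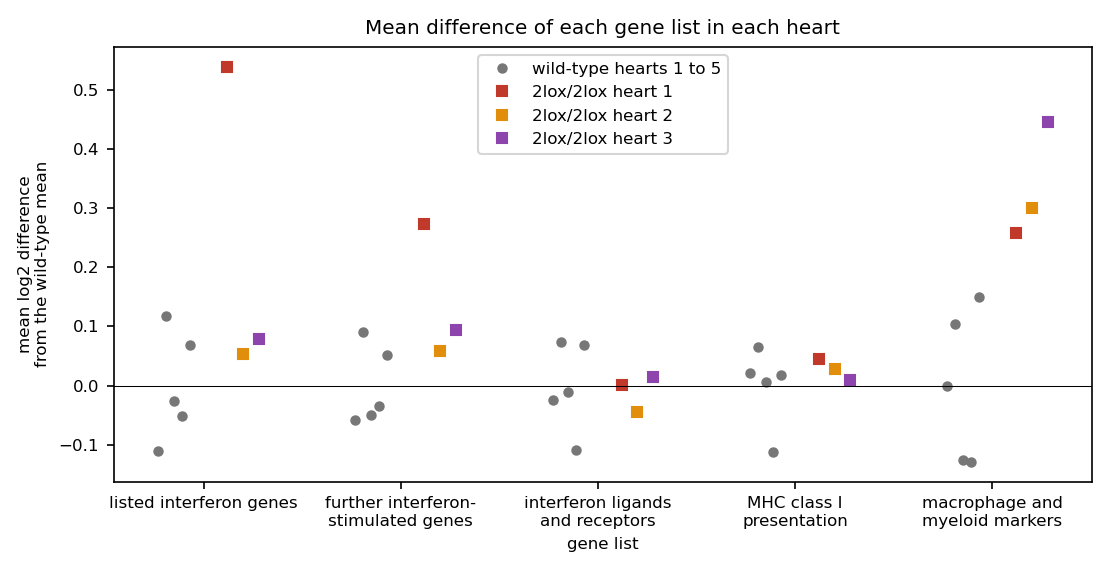
Log2 difference from wild-type, averaged over the genes of each list (vertical axis), for 5 lists (horizontal axis), with 1 grey circle per wild-type heart and 1 coloured square per 2lox/2lox heart. Heart 1 (red) is far above all other hearts in both interferon-stimulated lists, all hearts lie close together for ligands, receptors and class I presentation, and the order of the 2lox/2lox hearts is turned for the myeloid markers, where heart 1 is the lowest of the 3 at 0.26.

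The macrophage and myeloid markers were above the wild-type mean in all 3 mutant hearts, in another order. All 19 of them were measured and all 19 had a positive log2 fold change (48.0% of all genes; median 0.24), 10 being higher at the unadjusted threshold (5.82% of all genes) and 0 past the adjusted one. Their mean difference was 0.26 in heart 1, 0.30 in heart 2 and 0.45 in heart 3, and wild-type hearts ran from -0.13 to 0.15, so heart 1, the highest in interferon-stimulated genes, was the lowest of the mutant hearts in these markers. Of these markers, *Mrc1* read 7.83, 7.97 and 7.88 against 7.32 to 7.56. *Ptprc*, the common leukocyte antigen, had 5.199, 5.84 and 5.70 against 4.28 to 5.10, and *C1qc*, a complement subunit of macrophages, had 6.60, 6.66 and 6.56 against 5.65 to 6.20. The 8 neutrophil markers had no common direction, with 4 positive and 4 negative log2 fold changes, a median of 0.02, and 2 higher and 1 lower at the unadjusted threshold. Of these, *S100a8* (6.57, 5.49 and 6.89 against 4.56 to 5.78) and *S100a9* (6.05, 5.01 and 6.10 against 4.83 to 5.64) were high in hearts 1 and 3, and *Elane*, a neutrophil protease gene, had a log2 fold change of -0.15. None of the 14 measured lymphocyte markers passed the unadjusted threshold; *Rag2*, the recombinase subunit, was led by heart 1, at 5.61 against 4.80 to 5.03 in the other hearts. The part of these cells in the interferon-stimulated genes was not tested.

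RNA quality differed between hearts as well. Control probe sets read *Actb* and *Gapdh* at both ends of the transcript, and the excess of the 3′ end over the 5′ end, which grows as RNA degrades, averaged 0.52, 0.50 and 0.33 in 2lox/2lox hearts 1, 2 and 3. The wild-type hearts had 0.32 to 0.38. With that excess as a covariate, 1 gene of the list rather than 8 was higher at the unadjusted threshold, 1 was lower, and the median was 0.05. Calls also fell outside the list, from 36 to 9 of all 45101 probe sets at the adjusted threshold. The share of all genes at the unadjusted threshold is not given for that fit. The covariate itself was higher in 2lox/2lox hearts 1 and 2 than in any wild-type heart. In the fit without heart 3, genotype and this excess therefore cannot be told apart. Erythroid markers ran the other way, at -0.37 in heart 1, -0.01 in heart 2 and 0.55 in heart 3, inside the wild-type span of -0.90 to 1.01. The part of RNA quality in the result was not otherwise tested.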

How the data were processed

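RNA of 5 wild-type and 3 2lox/2lox hearts was measured on Affymetrix Mouse430 arrays, and the authors deposited log2 values of 45101 probe sets, already normalized; how the probes were summarized and normalized was not stated in what was read here, and low values depend on it most. Of tools, the submitters' processing notes name limma, with no version. Groups came from the labels. All 8 hearts entered 1 fit with limma 3.58.1 in R 4.3.3, by lmFit and then eBayes without an intensity trend or robust weighting. The contrast was 2lox/2lox minus wild-type and the test two-sided, and Benjamini-Hochberg adjustment ran over all probe sets, with a threshold of 0.05. The p-values set the difference between the groups against the spread between hearts within a group. Since the litter of each heart was not known, litters did not enter the fit.

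Gene symbols of the platform annotation were brought up to date by gene identifier in a RefSeq table of GRCm38.p6 (99.4% matched): 34958 had 1 gene, 932 several and 9211 none. The brightest probe set annotated to a gene alone was used. The members, the lists and the tests were chosen with earlier results of these data known. Every measured member is given with its log2 fold change; values in every heart are given for the 12 members with the smallest unadjusted p and for *Isg15*, *Irf7*, *Ifit1*, *Psmb8*, *Tap1* and *B2m*, and from each other list at most the 3 genes with the smallest p, and the text says of any other gene that its values had been seen.

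Alternatives were 2 filters on dim probe sets, quantile normalization or median centring, an intensity trend, robust moderation, weights per array, a block for the replicate number, a covariate for sex or for the 3′ minus 5′ difference of control genes, the mean of a gene's probe sets, and each heart left out. The fit and the motif search were tested on simulated data. Arrays have no sequencing depth, so their number limits the precision.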

Additional observations from a re-analysis of the deposited data

Results flagged for a closer look

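Among the 5 wild-type hearts, a single heart lay apart from the other 4 by Dixon's criterion for 2 of the 34 genes, where 5.80% of all genes did and chance alone gives about 1 in 20 groups. *Ifit3*, a partner of *Ifit1*, read 4.69 in wild-type heart 1 against 5.07 to 5.15 in the other wild-type hearts. *Usp18* read 4.55 in wild-type heart 2 against 4.15 to 4.26. The groups of 3 2lox/2lox hearts are too small for this criterion, so the values of 2lox/2lox heart 1 were not tested by it.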

How the results depend on the processing

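No alternative that kept all 8 hearts brought a gene of the list past the adjusted threshold; the only call came without 2lox/2lox heart 3 (*Trim25*, 0.56, adjusted p = 0.0313). Against 8 genes higher at the unadjusted threshold, either filter on dim probe sets gave 5 (of 21 and 20 members kept). Fewer genes were tested there, and 2 rather than 5 lay above the wild-type range. The 3′ minus 5′ covariate gave 1, with 1 lower and a median of 0.054. Over all probe sets that covariate left 9 past the adjusted threshold, against 36 in the main fit. The share of all genes at the unadjusted threshold is not given for these alternatives. Quantile normalization and the mean of a gene's probe sets each called 1 gene of the other pathway lists, against 0. Hearts of the same number did not deviate together (correlations 0.01, -0.08 and -0.05, against -0.12 to 0.13 for unlike numbers). The numbers thus gave no sign of pairing, but these correlations cannot tell whether hearts shared a litter. With the replicate number as a block over 6 hearts, 3 genes were higher and 0 probe sets were called in all. The share of all genes that were higher is not given for the block fit either. *Zbp1* (0.0097) and *Psmb8* (-0.040) changed sign there. Sign also changed with median centring for *Oas3* (-0.00062); with the 3′ minus 5′ covariate for *Ifit1* (-0.00021), *Ifit3* (-0.12), *Oas3* (-0.065), *Usp18* (-0.14), *Mx2* (-0.0079), *Psmb8* (-0.052) and *B2m* (0.012); and with the mean of probe sets for *Dhx58* (-0.079) and *Eif2ak2* (0.036).

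Leaving out each heart in turn gave a median of 0.043 to 0.21, 3 to 12 genes higher and 0 to 1 lower unadjusted, 0 to 1 higher and 0 to 0 lower past the adjusted threshold, 5 to 10 above and 0 to 3 below the wild-type range, and 0 to 4 other pathway genes called. The lowest median, the 3 higher genes, the 1 lower and the 3 below the range came without 2lox/2lox heart 1, the 10 above the range without 2lox/2lox heart 2, and the 4 pathway genes without 2lox/2lox heart 3. Omitting wild-type heart 1 left 5 genes higher. For these fits the share of all genes above or below the wild-type range is not given. At the unadjusted threshold it is given only without 2lox/2lox heart 1. With fewer hearts in a group, all of them lie beyond the other group more often by chance. The counts above and below the range therefore cannot be read against the shares found with all 8 hearts. Signs changed within -0.11 to 0.17 for *Ifit3*, -0.17 to 0.52 for *Usp18*, -0.044 to 0.053 for *Oas3*, -0.016 to 0.067 for *Dhx58*, -0.015 to 0.26 for *Xaf1*, -0.047 to 0.079 for *Psmb8*, -0.032 to 0.070 for *Mx2* and -0.077 to 0.023 for *Zbp1*. The cause of these changes was not tested. In alternatives added after the values were seen, heart 1 was highest for 26 genes with quantile normalization, 24 with median centring and 27 with the mean of probe sets, against 25, and led 7, 8 and 8 by more than 0.5, against 8. Dim genes are a further limit, since 16 of the 34 had a wild-type mean below the median of all values, where a fold change can be too small.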

Other observations

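The 16 genes that 2lox/2lox heart 1 led by more than 0.5 included 8 outside the list, named here after their values were seen. *Ifitm3* had a lead of 0.89, *Gbp7* 0.83, *Rnf213* 0.71 and *Trim30a* 0.70, and of these *Ifitm3*, *Gbp7* and *Trim30a* were on the list of other interferon-stimulated genes. *Gbp7*, a further guanylate-binding protein gene, read 6.43 in heart 1 and 5.08 to 5.60 in the other hearts, and *Trim30a* read 5.396 against 4.13 to 4.70. The remaining 4 were *Rag2* (0.58), *Daam2* (0.54), *Bak1* (0.51) and *Samd1* (0.51). Just under that lead came *Irgm1*, an immunity-related GTPase gene, at 6.87 in heart 1 against 5.82 to 6.37. 2lox/2lox heart 2 led 26 genes by more than 0.5, none of them on the list, with *Bhlhe40* (1.17) and *Ddx4* (0.99) first, and 2lox/2lox heart 3 led 2. Wild-type hearts 1 to 5 led 0, 9, 3, 27 and 15 genes by more than 0.5, none of them on the list. In wild-type heart 4 the lead was more than 1 for 5 genes, with *Hbb-bh1* (2.49), *Kel* (1.63) and *Hba-x* (1.17) first. A heart that stood apart in some genes was therefore also found among the wild-type hearts.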
